A study of Homo sapiens with 16 samples.

Results

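The genes described here were 10 direct targets of Wnt signalling, namely AXIN2, NKD1, RNF43, ZNRF3, NOTUM, LGR5, TCF7, LEF1, ASCL2 and SP5, in HCT116 and RKO, both established human colon cancer lines. They were found by their gene symbol in the platform annotation of the array. Of the 10 genes, 9 had probe sets under their symbol, 18 probe sets among the 54675 of the array and 9 genes among the 19775 named on it. TCF7 was the gene without one, and no value is given for it. Each line was measured on 8 arrays after 3 days in medium with serum, 1 array for each condition: an untreated control, each of the drugs PJ-34, 5-aza-dC and TSA alone, each pair of them, and all 3 together. PJ-34 inhibits poly(ADP-ribose) polymerase and was used at 3 µM in HCT116, while the study's text gives both 2 µM and 3 µM for RKO. 5-aza-dC (0.5 µM) blocks DNA methyltransferases, and TSA (150 nM) blocks histone deacetylases. No condition was repeated, so a drug effect compared the 4 arrays of a line with the drug against the 4 without it, and the line comparison set 8 arrays against 8. P-values therefore measured the spread among single arrays that nothing marks as separate cultures, and the number of arrays limited the precision. Each array was its own condition, so drug interactions outside the model also entered this spread.

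In Wnt signalling, a secreted ligand binds Frizzled and LRP receptors and stops a cytoplasmic destruction complex from degrading beta-catenin, which then enters the nucleus and switches on target genes with DNA-binding partners of the TCF/LEF family. Many targets are themselves parts of the pathway: AXIN2 is a scaffold of the destruction complex, NKD1 binds Dishevelled, RNF43 and ZNRF3 are ubiquitin ligases that remove Frizzled from the cell surface, and NOTUM strips the lipid from Wnt ligands. LGR5, a receptor for R-spondins, and ASCL2, a transcription factor, mark stem cells of the intestinal crypt, while TCF7 and LEF1 bind DNA with beta-catenin and SP5 is a zinc finger repressor of the same programme. HCT116 is known to carry an activating mutation of CTNNB1, the gene of beta-catenin, and RKO is known to lack one.

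Promoter sequences show where the DNA motif of the TCF/LEF family lies in genes whose signals are compared below. RefSeq entries (GRCh38.p14) were matched for 4 of the 10 genes, and the 250 bases before the start were searched on both strands for CTTTGAA or CTTTGAT or CTTTGTA or CTTTGTT, matches of which on a strand cannot overlap. Of 35116 such windows, 12.0% held at least 1 of these motifs and 1.21% held 2 or more. The window of SP5 held 3, a number reached by 0.122% of all windows, at 148 to 142, 109 to 103 and 84 to 78 bases before the start. The window of LEF1 and both windows of RNF43 held none. TCF7 had a window with 1 motif, at 50 to 44 bases before the start, and another with none. SP5 is shown at chr2:170715087-170715336 on the plus strand, LEF1 at chr4:108166302-108166551 on the minus strand, and RNF43 at chr17:58417535-58417784 on the minus strand, because SP5 had the largest 5-aza-dC value among the members tested in HCT116, which did not pass, and LEF1 and RNF43 the widest line differences. Each is written 5′ to 3′ along the gene, and capitals mark the motif on either strand.
SP5: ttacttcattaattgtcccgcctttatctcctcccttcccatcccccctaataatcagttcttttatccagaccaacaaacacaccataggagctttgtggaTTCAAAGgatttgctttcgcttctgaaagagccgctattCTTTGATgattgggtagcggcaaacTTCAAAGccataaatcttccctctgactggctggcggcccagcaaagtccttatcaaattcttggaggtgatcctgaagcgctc
LEF1: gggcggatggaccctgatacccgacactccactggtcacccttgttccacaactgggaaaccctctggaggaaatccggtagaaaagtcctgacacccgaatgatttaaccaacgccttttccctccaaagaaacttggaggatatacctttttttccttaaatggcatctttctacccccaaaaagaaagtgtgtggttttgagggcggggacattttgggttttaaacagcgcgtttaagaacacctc
RNF43: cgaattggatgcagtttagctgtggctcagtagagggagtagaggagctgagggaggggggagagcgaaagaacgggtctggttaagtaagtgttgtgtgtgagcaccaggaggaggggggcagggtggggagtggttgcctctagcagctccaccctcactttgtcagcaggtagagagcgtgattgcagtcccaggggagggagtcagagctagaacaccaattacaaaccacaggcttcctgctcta
The CpG dinucleotides, where DNA methylation sits, numbered 6 in the SP5 window, 8 in LEF1 and 4 in the RNF43 window shown. The other RNF43 window held 0, and the median over all windows was 11. A motif match describes the letters in the window and is not evidence of binding.

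The arrays shared a trimmed mean signal of 1000.14 to 1000.16, and their median signals were 160 to 210 in HCT116 and 152 to 202 in RKO. A pair of RKO arrays went against their labels. Over 168 probe sets raised by 5-aza-dC in HCT116, the array labelled PJ-34 stood 1.48 log2 units above the RKO control, like the 3 undisputed arrays with 5-aza-dC (1.26 to 1.44). The array labelled PJ-34/5-aza-dC stood only 0.0052 above it, near the other arrays without 5-aza-dC (0.12 to 0.14). Both were kept under their labels, and results that rest on them are also given without both. Colon epithelial markers also separated the lines: 9 of 14 tested were higher in HCT116 and none lower. Among all probe sets tested, 21.1% were higher in HCT116 and 22.8% lower. KRT19, CDH1, CLDN3, CLDN4 and ESRP1 passed the filter on low signals, given below, only through their HCT116 arrays. The summed signal over 15 genes was 188230 to 271462 in HCT116 and 19872 to 21826 in RKO. KRT19 had a median signal of 54281 in HCT116 and 7.46 in RKO, and CDH1 7168 and 11.4, and the intestinal keratin KRT20 read 258 to 3566 in HCT116 and 4.84 to 314 in RKO. The other intestinal markers of the list, CDX1, CDX2, VIL1, LGALS4, TFF3 and MUC2, read at most 441 on any array of either line. Fibroblast markers summed to 755 to 1353 in HCT116 and 1018 to 1463 in RKO, and blood markers to 512 to 1557 and 359 to 802. Whether the epithelial difference has a part in the line differences below was not tested.

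Between the lines, 4 Wnt targets were higher in HCT116 and 1 was higher in RKO. RNF43 was 25.1-fold, AXIN2 4.32-fold, NOTUM 3.88-fold and ZNRF3 2.30-fold higher in HCT116, all 4 being inhibitors of the pathway. The Dishevelled binder NKD1 and the repressor SP5 did not differ past the test. LEF1 was 53.9-fold higher in RKO. In bulk RNA, fewer expressing cells and less RNA per cell cannot be told apart. The folds are between mean log2 signals after values under 50 were set to 50, so they understate differences that reach below that floor. With limma's moderated test and Benjamini-Hochberg adjustment, 5 of the 9 genes passed an adjusted p of 0.05, read from the probe set with the highest mean of each gene. This stands beside 43.8% of all 42119 probe sets tested that passed (21.1% higher and 22.8% lower in HCT116), so the lines differed widely and the members' share was not far from that background. Members, and the pathway roles below, were counted by gene from the brightest probe set, and the background by probe set. The median log2 difference of the 9 genes was -0.18, against -0.01 over all probe sets. The same 5 genes had signals that did not overlap between the lines, beside 19.7% of all probe sets. The test took probe sets that reached 100 on at least 4 arrays. RNF43 and NOTUM did so only in HCT116, and LEF1 only in RKO.

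**Figure D1:**
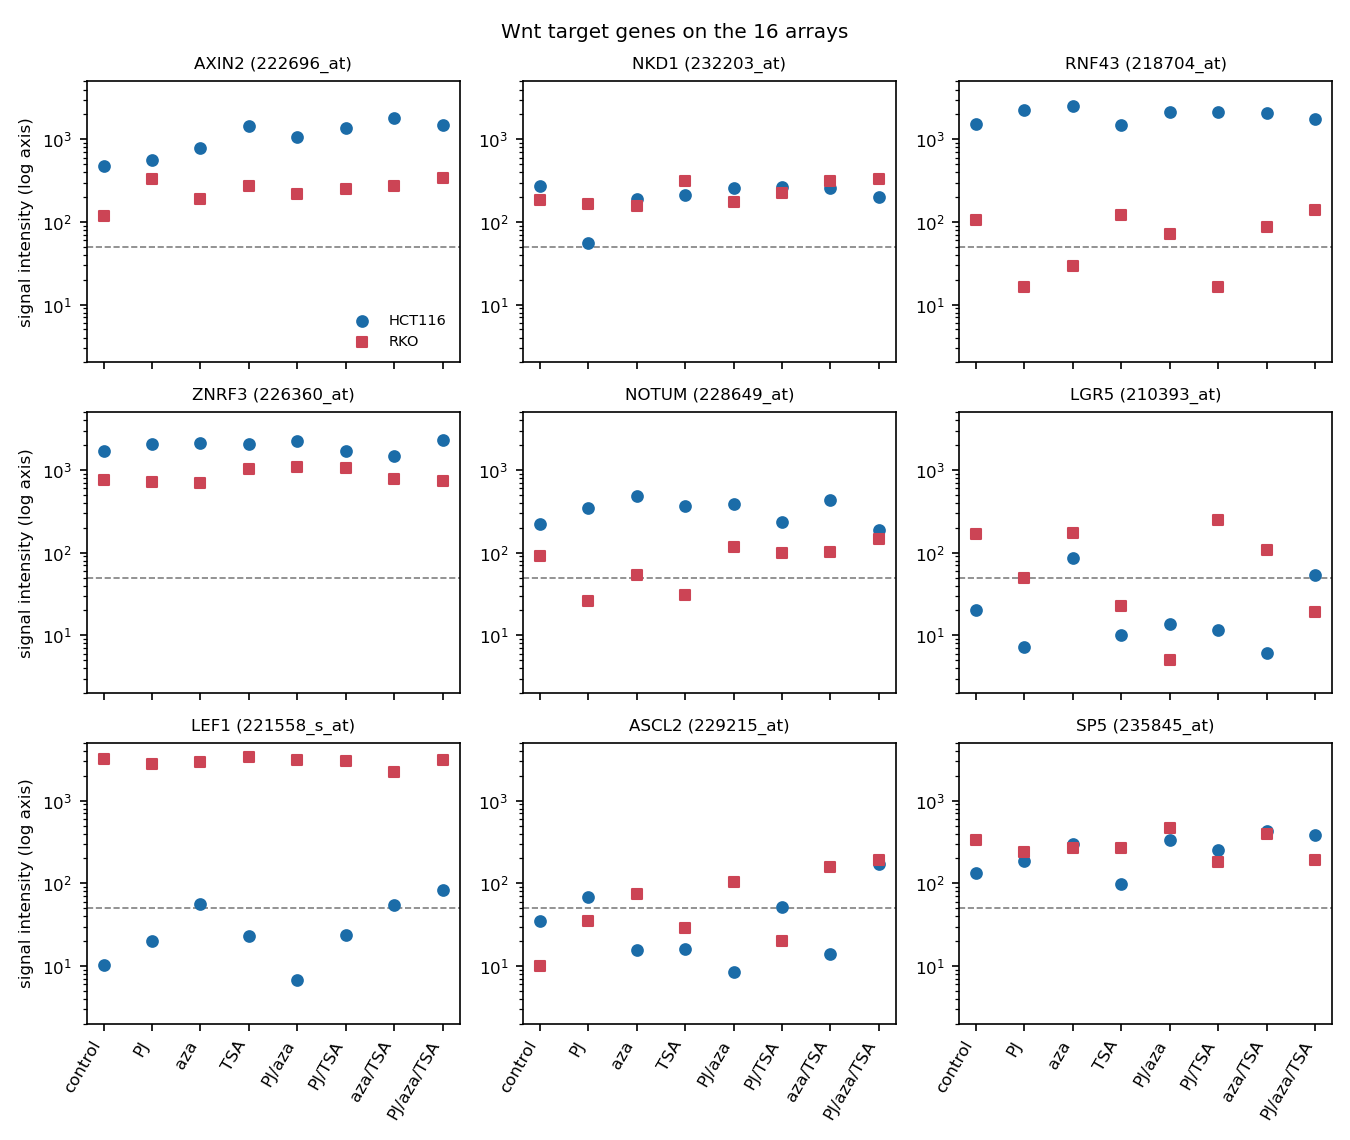
Signal intensity (log axis) of the representative probe set of 9 Wnt target genes on each of the 16 arrays, with conditions along the horizontal axis, HCT116 as circles, RKO as squares and the floor of 50 as a dashed line. AXIN2, RNF43, ZNRF3 and NOTUM lay higher on every HCT116 array than on any RKO array, LEF1 lay higher on every RKO array, and the other 4 genes overlapped.

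Among the 9 genes, RNF43 had the widest excess in HCT116. Its signal in HCT116 was 1508 at the lowest, 2123 at the median and 2525 at the highest, and in RKO 16.2, 80.0 and 139. No RKO array came near an HCT116 array, and 3 of the 8 RKO arrays lay under the floor of 50. The log2 difference was 4.65 (SE 0.25, limma adjusted p = 4.21e-10), higher in HCT116 in 8 of 8 conditions. RNF43 reached 100 on 8 HCT116 arrays and 3 RKO arrays, so it passed the filter on low signals through HCT116 alone. ZNRF3, its relative, was present in both lines, with 1495, 2060 and 2306 in HCT116 and 696, 774 and 1080 in RKO. Every HCT116 array exceeded every RKO array, and the log2 difference of 1.20 (SE 0.12, limma adjusted p = 5.49e-07) was the smallest of the 5 that passed.

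AXIN2 was read by 4 probe sets, and they differed in brightness. On the brightest, 222696_at, the HCT116 signals were 476 in the control, 556 with PJ-34, 781 with 5-aza-dC, 1466 with TSA, 1063 with PJ-34 and 5-aza-dC, 1377 with PJ-34 and TSA, 1810 with TSA and 5-aza-dC, and 1506 with all 3 drugs. The RKO signals in the same order were 119, 327, 188, 273, 215, 250, 275 and 341. The lowest HCT116 array was thus above the highest RKO array, and the log2 difference was 2.11 (SE 0.18, limma adjusted p = 1.09e-07), with every condition higher in HCT116. The untreated controls alone gave a 4.01-fold ratio, with no replicate. The probe set 224176_s_at was also higher in HCT116, by 1.45 (SE 0.31, limma adjusted p = 0.00107), though its signals overlapped. This probe set reached 100 on 7 HCT116 arrays and 2 RKO arrays, so it passed the filter on low signals through HCT116 alone. The dim probe sets 222695_s_at and 224498_x_at differed by 0.56 and 0.43 and did not pass. Of their 32 readings, 14 lay under 50 (4 in HCT116 and 10 in RKO).

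NOTUM, the secreted inhibitor, had HCT116 signals of 190 at the lowest, 360 at the median and 486 at the highest, and RKO signals of 26.3, 95.2 and 144. The lines did not overlap, although the gap between 144 and 190 was narrow, and the log2 difference was 1.96 (SE 0.32, limma adjusted p = 1.15e-04). NOTUM reached 100 on 8 HCT116 arrays and 3 RKO arrays, so it passed the filter on low signals through HCT116 alone. NKD1, the Dishevelled binder, was in the same range in both lines. Its brightest probe set gave 55.4, 233 and 275 in HCT116 and 154, 206 and 330 in RKO. The log2 difference of -0.18 did not pass (95% interval -0.83 to 0.46, limma adjusted p = 0.679). Its dim probe set 229481_at gave -0.45 and did not pass either.

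LEF1 ran opposite to RNF43, AXIN2, NOTUM and ZNRF3. On its brightest probe set, 221558_s_at, the RKO arrays read 2241 at the lowest, 3061 at the median and 3397 at the highest, and the HCT116 arrays 6.72, 23.3 and 82.9. All RKO arrays were bright, 5 of the 8 HCT116 arrays lay under 50, and the probe set passed the filter on low signals through its RKO arrays alone. The log2 difference was -5.75 (SE 0.18, limma adjusted p = 6.24e-13), and -6.52 with the floor at 20 in place of 50. The probe set 210948_s_at gave the same direction, with 221 to 736 in RKO and 11.5 to 136 in HCT116, and a log2 difference of -2.72 (SE 0.27, limma adjusted p = 6.59e-07). It reached 100 on 8 RKO arrays and 1 HCT116 array, so it too passed the filter through RKO alone. The third, 221557_s_at, was dim in both lines, with 15.2 to 168 in RKO and 13.6 to 121 in HCT116. Its difference of -0.30 did not pass.

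SP5 did not differ between the lines beyond its spread. It read 97.5 at the lowest, 273 at the median and 431 at the highest in HCT116, and 179, 270 and 461 in RKO. The log2 difference was -0.24 (95% interval -0.79 to 0.31, limma adjusted p = 0.506). The untreated controls alone stood the other way from AXIN2, with 134 in HCT116 and 339 in RKO.

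The stem cell genes were dim. The 2 probe sets of LGR5 read 6.05 to 86.1 in HCT116, with 12 of 16 readings under 50, and 4.66 to 246 in RKO, with 9 of 16 under 50. The brighter one differed by -0.76 (SE 0.35) at a limma adjusted p of 0.0996, which became 0.0230 without the RKO array labelled TSA. The 2 probe sets of ASCL2 read 2.77 to 169 in HCT116, with 13 of 16 readings under 50, and 3.76 to 191 in RKO, with 12 of 16. Its tested probe set differed by -0.37 (limma adjusted p = 0.349). At these signals a line difference in LGR5 or ASCL2 was hardly measurable.

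**Figure D2:**
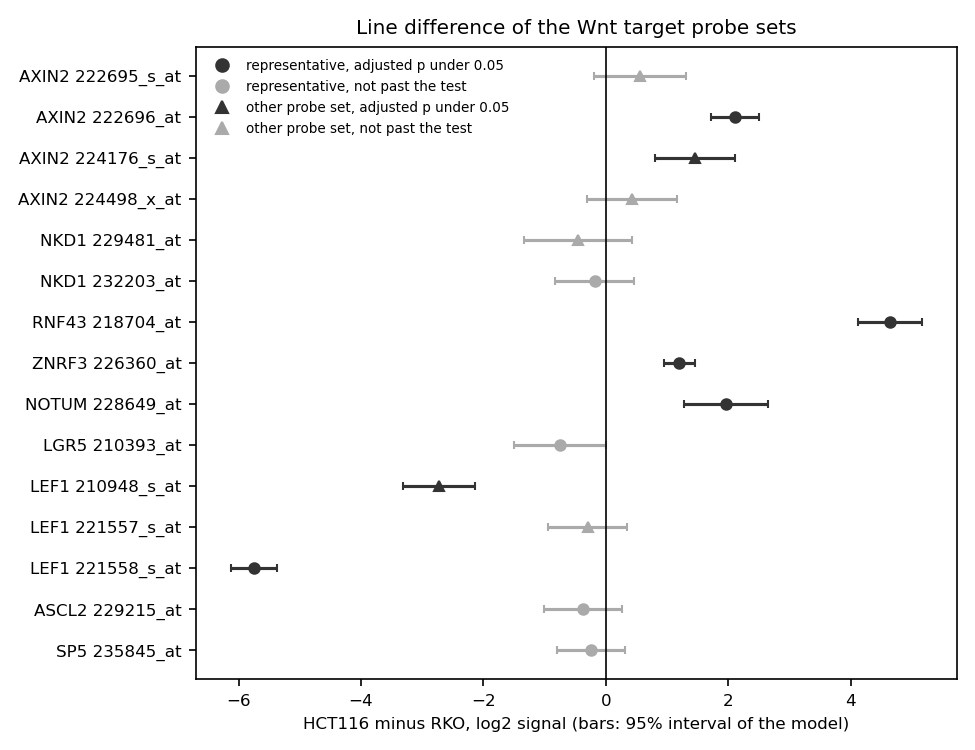
Log2 signal difference, HCT116 minus RKO, of the 15 tested probe sets of the Wnt target genes, with 95% intervals of the model as bars, circles for the representative probe set of a gene and triangles for the others, dark where the adjusted p was under 0.05. RNF43 stood at 4.65 and LEF1 probe set 221558_s_at at -5.75, while the AXIN2 probe sets ran from 0.43 to 2.11.

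When both disputed RKO arrays were left out, the same 5 genes passed. AXIN2 was then at 2.17, RNF43 at 4.65, ZNRF3 at 1.27, NOTUM at 1.53 and LEF1 at -5.71 on the log2 scale.

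TSA raised AXIN2 in HCT116. The 4 HCT116 arrays with TSA read 1377 to 1810 on 222696_at and the 4 without it 476 to 1063, with no overlap, beside 13.2% of all probe sets. The log2 effect was 1.16 (SE 0.19, 2.24-fold, limma adjusted p = 0.00310), and each of the 4 pairs of arrays that differ only in TSA rose, by 0.50 to 1.62. The smallest rise was that from 1063 to 1506, with PJ-34 and 5-aza-dC on both arrays. AXIN2 was the only gene called among the 6 with a tested representative in HCT116, beside 8.99% of the 35373 probe sets tested. Its other 3 probe sets did not pass, at -0.67 for 222695_s_at and 0.46 for both 224176_s_at and 224498_x_at. The call on 222696_at was lost without the filter on low signals (limma adjusted p = 0.0721) and without a trend in the variance prior (limma adjusted p = 0.0998).

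The other HCT116 members did not pass with TSA. RNF43 stood at -0.15, ZNRF3 at -0.12, NOTUM at -0.26, NKD1 at 0.48 and SP5 at 0.17 on the log2 scale. RNF43 was lower in all 4 pairs, but by no more than 0.27, and its 95% interval ran from -0.51 to 0.21. The median over the 6 genes was 0.02, against -0.07 over all probe sets.

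In RKO, none of the 6 tested members was called with TSA, where 0.00591% of the 33862 probe sets passed (2 probe sets, and 4158 at an unadjusted p under 0.05). By its representative, NKD1 had the smallest p of the 6. Its 4 arrays with TSA read 226 to 330 and the 4 without it 154 to 186. They did not overlap, beside 7.33% of all probe sets, and all 4 pairs were higher, but the log2 difference of 0.79 (SE 0.30) had a limma adjusted p of 0.318. LEF1 probe set 210948_s_at stood at -0.77 (SE 0.27, limma adjusted p = 0.280), lower in all 4 pairs, while the brighter 221558_s_at stood at -0.04. AXIN2 in RKO read 250 to 341 with TSA and 119 to 327 without it, and its log2 difference was 0.51 (SE 0.33, limma adjusted p = 0.572). Without the disputed pair of arrays NKD1 stood at 0.89 and AXIN2 at 0.87, neither passing. Those values come from the arrays without PJ-34, since every remaining RKO array with PJ-34 also carried TSA.

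The AXIN2 response to TSA was not shown to differ between the lines. The difference of the effects, HCT116 minus RKO, was 0.66 on the log2 scale (95% interval -0.11 to 1.43, limma adjusted p = 0.510), or 0.54 without the disputed pair. The dimmer AXIN2 probe set 224176_s_at differed by 1.68 (95% interval 0.37 to 3.00, limma adjusted p = 0.274). In RKO it was too dim to be tested, with 39.5 to 64.2 on the arrays with TSA and 68.7 to 221 on those without it, which did not overlap and lay lower with TSA, unlike 222696_at. No member passed the test of the line difference, beside 0.283% of 42119 probe sets (119), and 3 member probe sets had an unadjusted p under 0.05. Besides 224176_s_at these were 2 of LEF1, 210948_s_at at 1.25 and 221557_s_at at 1.67. The latter, also untested in RKO alone, read 15.2 to 61.6 there with TSA and 87.5 to 168 without it.

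**Figure D3:**
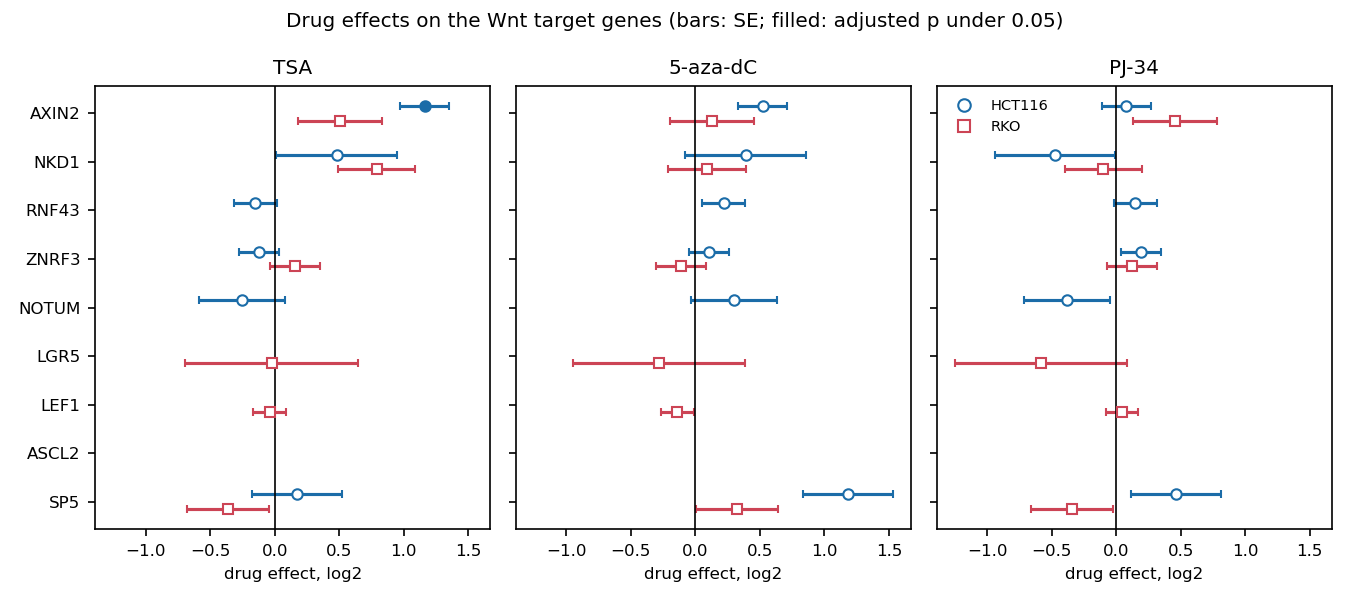
Log2 effect of TSA, 5-aza-dC and PJ-34 on the representative probe set of each Wnt target gene, with the SE as bars, HCT116 as circles and RKO as squares, filled where the adjusted p was under 0.05 and blank where the signal was too low to be tested. AXIN2 with TSA in HCT116, at 1.16, is the only filled point, and SP5 with 5-aza-dC in HCT116 stood at 1.19.

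With 5-aza-dC, SP5 and AXIN2 gave the largest member values in HCT116, and neither passed. The 4 HCT116 arrays with 5-aza-dC read 296 to 431 for SP5 and the 4 without it 97.5 to 250, without overlap, beside 4.21% of probe sets that did not overlap. The log2 difference was 1.19 (SE 0.35, 2.27-fold, limma unadjusted p = 0.00433), higher in 4 of 4 pairs, with a limma adjusted p of 0.192. AXIN2 read 781 to 1810 with 5-aza-dC and 476 to 1466 without it. These overlapped, and the log2 difference of 0.52 (SE 0.19), higher in 4 of 4 pairs, had a limma adjusted p of 0.331. None of the 6 tested genes was called in HCT116, beside 0.744% of probe sets, and 2 of the 6 had an unadjusted p under 0.05. All 6 values were above 0, with a median of 0.34 against -0.01 over all probe sets, and the other 4 genes ran from 0.10 to 0.39.

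RKO showed no called member with 5-aza-dC, where no probe set passed at all (0 by limma, 1759 at an unadjusted p under 0.05). Without the disputed pair 610 probe sets of the array passed, and still no member. SP5 read 193 to 461 with the drug and 179 to 339 without it. The groups overlapped, and the log2 difference was 0.32 (SE 0.32, limma adjusted p = 0.893), or 0.12 without the disputed pair. LEF1, bright in RKO, read 2241 to 3080 with 5-aza-dC and 2779 to 3397 without it on 221558_s_at, a log2 difference of -0.14 that did not pass. ASCL2, too dim in RKO to be tested there, read 74.8 to 191 with 5-aza-dC and 10.0 to 35.2 without it. It was the only representative in RKO whose arrays with and without 5-aza-dC did not overlap. The share of all probe sets without such overlap was not computed here. ASCL2 was higher in 4 of 4 pairs, by 0.58 to 1.94 on the floored log2 scale. Of these pairs, 1 joins both disputed arrays, at 35.2 (labelled PJ-34) and 105 (labelled PJ-34/5-aza-dC). Without both, the arrays read 74.8 to 191 with 5-aza-dC and 10.0 to 28.9 without it. The 5-aza-dC effect on ASCL2 differed between the lines by -0.99 without passing (limma adjusted p = 0.744). The line difference of the SP5 effect was 0.86 (95% interval -0.24 to 1.97, limma adjusted p = 0.745), or 1.29 without the disputed pair. No member passed that test, beside 0.0427% of 42119 probe sets (18).

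**Figure D4:**
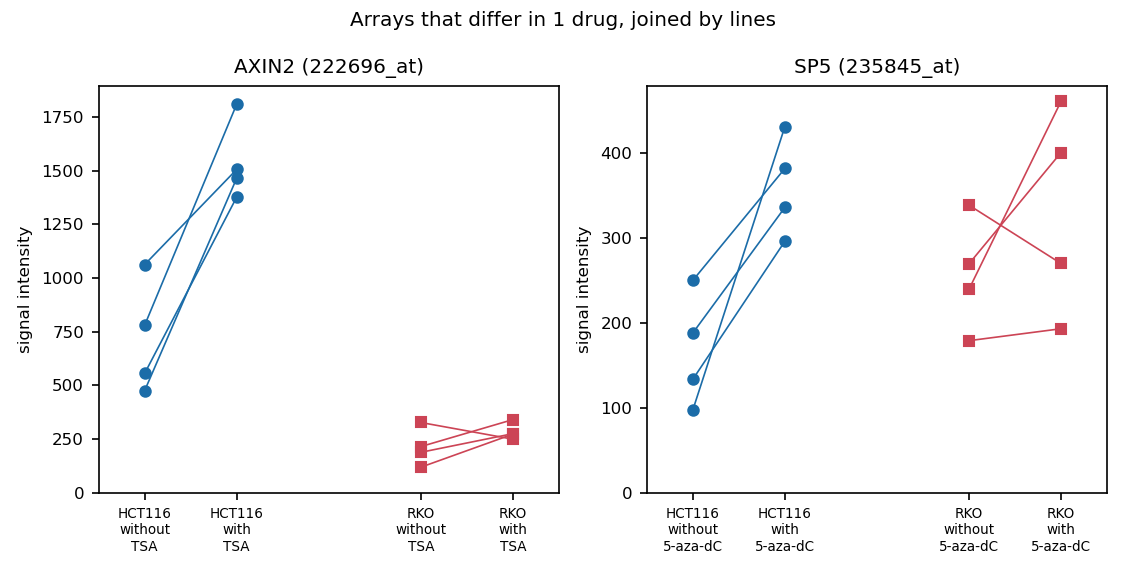
Signal intensity (linear axis from 0) of AXIN2 with and without TSA and of SP5 with and without 5-aza-dC, each line joining the 2 arrays of a cell line that differ in that drug alone, HCT116 as circles and RKO as squares. All 4 HCT116 lines rise in both panels, AXIN2 from 476 to 1063 up to 1377 to 1810, and in RKO 3 of 4 rise in each. Those RKO counts rest on the disputed arrays. The AXIN2 fall from 327 to 250 starts at the array labelled PJ-34, and the SP5 rise from 239 to 461 joins both.

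PJ-34 moved no member past the test in either line. In HCT116 no probe set of the array passed (0 by limma, 1323 at an unadjusted p under 0.05), and none of the 6 genes had an unadjusted p under 0.05. The values ran from -0.47 for NKD1 to 0.46 for SP5 on the log2 scale. In RKO the count was also 0 (895 at an unadjusted p under 0.05), with AXIN2 at 0.46 (SE 0.33), LGR5 at -0.58 and SP5 at -0.34. Those RKO values rest on both arrays that went against their labels, and without them AXIN2 stood at 0.09, LGR5 at 0.59 and SP5 at -0.82, none passing. The latter values are effects of PJ-34 in the presence of TSA, since every remaining RKO array with PJ-34 also carried TSA.

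Most correlations between members from array to array were weak. Over the 8 HCT116 arrays, Pearson's r of AXIN2 with RNF43 was -0.02 and with ZNRF3 -0.12, and among the 36 member pairs the highest was 0.91, for LEF1 with ASCL2, both of which lay under 50 on 5 of the 8 arrays. The next was 0.63, for RNF43 with SP5. In RKO the highest were 0.72, for NKD1 with RNF43, and 0.67, for NOTUM with ASCL2. The median over the 36 pairs was 0.10 in HCT116 and 0.03 in RKO. Probe sets of 1 gene also disagreed: AXIN2 222696_at gave an r of -0.58 with 222695_s_at in HCT116. The genes most like AXIN2 over the HCT116 arrays, of 11570 compared, were RARS1 (r = 0.99), POLR2B (0.99), PSMD12 (0.99), TARDBP (0.99) and MMADHC (0.98). In RKO, of 10757 compared, they were CCDC126 (0.97), GABARAPL1 (0.95), MOCS2 (0.95), MIDEAS (0.95) and SH3D21 (0.93). These coefficients describe 8 arrays that share the drugs and the scaling, and no gene stood in both lists.

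Beyond the members, 95 of 101 listed pathway genes had a probe set. CTNNB1 itself differed little in level, with medians of 36979 in HCT116 and 34294 in RKO and a log2 difference of 0.03 (limma adjusted p = 0.699). Of the 22 tested targets other than the members, 14 were higher in HCT116 and 3 lower, with a median log2 difference of 1.18, beside 21.1% higher and 22.8% lower among all probe sets. The gene lists were chosen with earlier results of these data known, so these counts are a description only. The widest difference was that of DKK1, a secreted Wnt antagonist, at 8.17, with 17295 to 30693 in HCT116 and 15.6 to 305 in RKO. DKK1, BMP4, CEMIP, TNFRSF19 and DKK4 passed the filter on low signals only through their HCT116 arrays, and PROX1 only through its RKO arrays. The 22 tested genes and their median include them. Other targets past the test were SOX9, a crypt transcription factor, at 6.17, the cyclin CCND1 at 2.59, and RGMB, a BMP co-receptor, at -5.22. MYC, another target, stood at -0.10 and did not pass. Among the nuclear partners, 7 of 15 were higher and 2 lower (median 0.26), beside the same shares. TCF7L2 at 2.50 and TCF7L1 at 3.35, DNA-binding partners of beta-catenin like LEF1, stood in the direction opposite to it, and the lower pair were the corepressor TLE4 at -2.63 and the chromatin remodeller SMARCA4 at -0.73. TCF7L1 passed the filter on low signals only through its HCT116 arrays, and TLE4 only through its RKO arrays.

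In the upstream roles too, genes passed in both directions. Of 11 tested Wnt ligand genes (with the ligand carrier WLS), 3 were higher in HCT116 and 2 lower, with WNT16 at 4.92, WNT9A at 2.12 and WLS at -0.68. Of 15 receptor and R-spondin genes, 4 were higher and 2 lower, with the receptor kinase ROR2 at 2.64 and the Frizzleds FZD5 at -0.74 and FZD6 at -0.80. Of the genes named here, WNT9A and ROR2 passed the filter on low signals only through their HCT116 arrays. Of 16 relay and destruction complex genes, 5 were higher and 4 lower, with the tankyrase TNKS at 1.61, CSNK1E at -1.09 and APC at -1.02. Medians for these 3 roles were 0.18, 0.20 and 0.05, and the shares over all probe sets were again 21.1% and 22.8%.

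**Figure D5:**
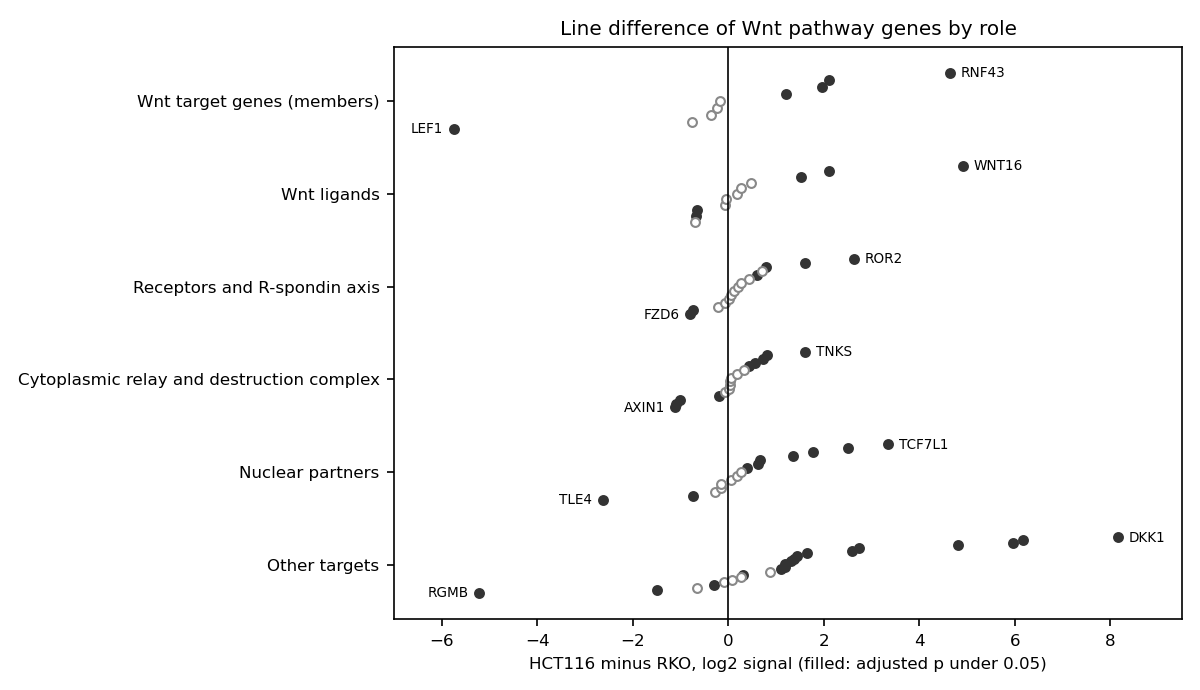
Log2 signal difference, HCT116 minus RKO, of every tested Wnt pathway gene by role, filled where the adjusted p was under 0.05, with the outermost gene on each side named where it passed. Among the other targets 14 filled points lie above 0 and 3 below, and LEF1 at -5.75 lies on the side opposite to the 4 filled members above 0.

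With TSA in HCT116, 3 of 21 other targets rose and 1 fell, where 8.99% of all probe sets passed. CCND1 rose by 0.84, the ligand BMP4 by 1.08 and the hyaluronan-binding CEMIP by 1.85 on the log2 scale, and SOX9 fell by 0.40. Of the receptors FZD7 (-0.79) and LRP6 (-0.51) fell, as did the corepressor TLE2 (-0.78). CCND1 read 11842 to 15850 on the HCT116 arrays with TSA and 6255 to 9138 on those without it, while the RKO arrays stayed between 1522 and 2037. The line difference of its TSA effect was 0.96 (limma adjusted p = 0.0127), the only pathway gene outside the members to pass that test. With 5-aza-dC in HCT116, 2 of 21 other targets rose, where 0.744% of all probe sets passed. SOX9 rose by 0.61 on the log2 scale. DKK4, a secreted Wnt antagonist, read 345 to 970 with 5-aza-dC and 9.27 to 29.3 without it, at least 12.3-fold higher against the floor of 50. It passed the filter on low signals through its arrays with the drug alone, so it had to differ. No other pathway gene in these roles was called with either drug in HCT116, and none with PJ-34.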

How the data were processed

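Total RNA was labelled and hybridised to 16 Affymetrix HG-U133 Plus 2.0 arrays, 1 array for each of 8 conditions in each line. The deposited values are signal intensities on a linear scale, made by the authors with GCOS, whose version was not given in the sources used here. They share a trimmed mean. Probe sets were named through GEO's platform annotation: 41097 had 1 gene symbol, 1801 had several and 11777 were not listed, and 1 member, TCF7, had no probe set listed. Members and gene lists were chosen with earlier results of these data known.

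Intensities were floored at 50 and log2 transformed. A probe set was kept if it reached 100 on at least 4 arrays of a fit, and control probe sets were left out. limma 3.58.1 in R 4.3.3 was used (lmFit, then eBayes with a trend), with terms for the 3 drugs within each line, and with line, drug, line by drug and drug by drug terms over all 16 arrays. P-values were adjusted by the Benjamini-Hochberg method over all probe sets tested, at a threshold of 0.05. The script was tested on simulated data. Standard errors and 95% intervals are those of the model. A gene's representative was its probe set with the highest mean log2 signal. All members are named, and for the other pathway genes up to 3 per role past the test with the smallest p, plus CTNNB1, MYC and SOX9 with TSA, TLE4 and DKK1, and the outermost genes of the plot by role, added after their values were seen. Named too are the 5 genes with the highest correlation to AXIN2 per line, among those with a mean signal of at least 200 there. Alternatives were a floor of 20, no filter, quantile normalization, no variance trend, 1 fit for both lines, no drug by drug terms, and leaving out each array or both disputed RKO arrays.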

Additional observations from a re-analysis of the deposited data

Results flagged for a closer look

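Among the 9 representative probe sets in each line, 18 groups of 8 arrays, 4 held an array far from the others by Dixon's gap ratio, taken on log2 signals floored at 50. On linear signals without the floor the ratios of LGR5 (0.405) and LEF1 (0.354) fell under the critical value of 0.526, and those of NKD1 (0.624) and ASCL2 (0.629) did not. Chance gives about 1 in 20 groups where values are not tied, and the 8 arrays are different conditions. Of the 8 HCT116 readings, 6 of LGR5, 5 of LEF1 and 5 of ASCL2 were tied at the floor, so that rate does not hold for them. In HCT116, NKD1 (232203_at) read 55.4 with PJ-34, where the other arrays read 192 to 275. LGR5 (210393_at) read 86.1 with 5-aza-dC, the others 6.05 to 53.7. LEF1 (221558_s_at) read 82.9 with all 3 drugs, the others 6.72 to 55.9, still far under the RKO arrays. ASCL2 (229215_at) read 169 with all 3 drugs, the others 8.53 to 68.1.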

How the results depend on the processing

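No paired analysis was possible because every array carries the replicate number 1, so numbers pair nothing, and arrays are matched by condition through the drug terms alone. Over the 10 comparisons, 167 of 169 alternatives gave a count of called members within 1.5 times the reported one. Only the line comparison and TSA in HCT116 had a reported count above 0. For the others an alternative count of 0 was taken as the same, so that figure says little about them. TSA in HCT116 went from 1 called gene (AXIN2) to 0 with no filter and to 0 with no trend in the variance prior, and the cause was not tested. The count over the whole array moved more, from 3180 to 920 to 5475 without each array in turn, 323 with no filter and 0 with no trend. The AXIN2 effect was 1.16 under both, and 1.04 to 1.33 without each HCT116 array in turn, past the test in all 8. Without each array in turn, the line comparison called 5 to 6 genes, the sixth being LGR5 without the RKO array labelled TSA, and every comparison of 5-aza-dC and PJ-34, TSA in RKO and the line differences of drug effects called 0. AXIN2, RNF43, ZNRF3, NOTUM and LEF1 passed the line comparison in all 22 alternatives, with AXIN2 at 1.97 to 2.27, RNF43 at 4.45 to 5.08, ZNRF3 at 1.11 to 1.29, NOTUM at 1.53 to 2.30 and LEF1 at -6.52 to -5.66. The other targets higher in HCT116 numbered 13 to 15 and those lower 2 to 4. Signals near or under 50, as for LGR5, ASCL2 and the dim AXIN2 and NKD1 probe sets, limit what these genes can show.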
